A study of Mus musculus with 6 samples.

Results

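The genes described here are 44 genes of the lysosome, read from a table of read counts of whole mouse kidney: the TFEB family of transcription factors, lysosomal membrane proteins, acid hydrolases with their cofactors, and the widely expressed subunits of the proton pump. They were taken by symbol, all 44 of 44 were found among 32285 gene IDs, and all 44 passed the filter on low counts that left 15955 genes for testing. The high-load group held 3 kidneys with TrnE mutation loads of 75%, 75% and 80%, where TrnE is the glutamate tRNA gene of mitochondrial DNA and the load is the share of mutated copies. In the 3 control kidneys the loads were 10%, 5% and 15%, so the controls carried the mutation too and no kidney was free of it. All 6 libraries came from females of 100 weeks, each with its own animal code, and p-values measure the spread between these kidneys. No strain and no changed base are named in the labels. The comparison asks which lysosomal transcripts differ with the load when age and sex are held equal.

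Lysosomes are acid compartments in which hydrolases break down protein, sugar chains and lipid. The acid comes from the vacuolar ATPase, a pump whose V1 sector splits ATP in the cytosol and whose V0 sector passes protons through the membrane. TFEB, TFE3 and MITF are related transcription factors that are held in the cytosol by mTORC1 and, once released, bind E-box letters in the promoters of many lysosomal genes. In the kidney, proximal tubule cells use lysosomes to digest protein taken up from the filtrate, and macrophages are rich in lysosomes as well.

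A set of hydrolases and of genes known from macrophages had higher levels in high-load kidneys. For 25 of the 44 genes the 95% interval of the fold change lay within 1.5-fold either way. Tfeb and Atp6v0e are among these 25 and also among the 13 higher genes counted next. For such intervals, here and below, the share of all genes was not computed. Of the 44 genes, 13 (29.5%) were higher and 0 were lower at an unadjusted p under 0.05 by the quasi-likelihood test of edgeR. The shares of all genes tested were 14.0% higher and 10.2% lower, and counts in smaller gene groups below stand beside the same shares. At an adjusted p under 0.1, 8 members (18.2%) were higher and 0 lower, against 2.59% and 0.608% of all genes. The 8 became 11 without high-load 2 and 0 without any other single kidney. In those runs the share of all genes at this threshold was not computed. At the adjusted threshold of 0.05, 0 members passed in edgeR, where 0.0188% of all genes did, and 0 passed in limma-voom, whereas DESeq2 called 11 members higher and 0 lower, against 6.67% and 3.88% of all genes. Without high-load 2, edgeR called 9 members, all higher, and of all 16283 genes tested in that run it called 544 higher and 263 lower. The median log2 fold change over the members was 0.014, and over all genes tested it was 0.0067. Levels are CPM, which are read counts scaled to one fixed library total after TMM normalisation, and each fold change divides high load by control. The groups did not overlap for 15 members that were higher and 1 that was lower, against 17.1% and 15.8% of all genes. With 3 kidneys against 3, an exact two-sided permutation test of a single value cannot go below p = 0.1.

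**Figure D1:**
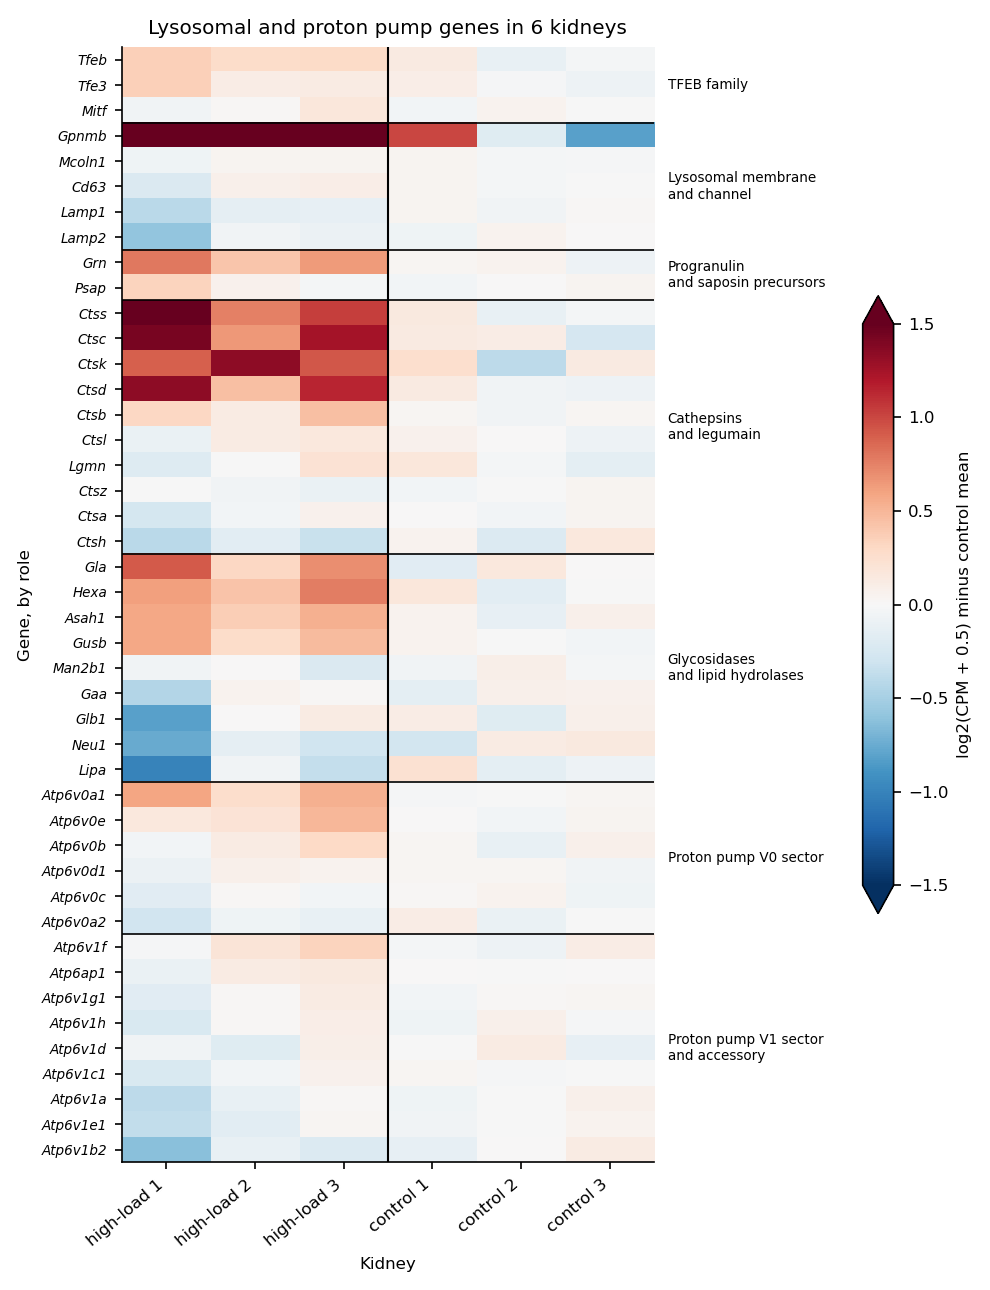
Level of each of the 44 genes in each kidney, as log2(CPM + 0.5) minus the control mean of the gene. Rows are grouped by role, and the 3 high-load kidneys stand left of the 3 controls. The colour scale ends at 1.5 either way (Gpnmb goes past it in the high-load kidneys, and Ctss in high-load 1). The dark rows are Gpnmb and cathepsins S, C, K and D, and the rows of the proton pump are pale.

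Cell type markers differed between the groups as well. Summed levels of 15 macrophage markers, from Adgre1 and C1qa to Lyz2 and Cd74, were 3300, 1977 and 1954 CPM in high-load 1, 2 and 3, against 1357, 1054 and 1320 CPM in controls 1, 2 and 3. At an unadjusted p under 0.05, 14 of the 15 were higher, and the exception was Csf1r, the receptor that macrophages need to survive (log2 fold change -0.046). Summed levels of 15 proximal tubule markers, such as Lrp2 and Slc34a1, were 6293, 17290 and 12370 CPM in high-load kidneys, against 22950, 25230 and 21530 CPM in controls. None of the 15 tubule markers and none of the 15 macrophage markers was at 0 in any library, and high-load 1 had the highest macrophage and the lowest tubule sum. In whole tissue, fewer cells of a type and less RNA per cell cannot be told apart, and the part of either marker list in the results below was not tested. Libraries held 17449270 to 18865997 counts. The TMM factors, which divide the levels, were 1.14 in high-load 1 and 0.944 to 0.997 in the other kidneys.

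The TFEB family had small differences. Tfeb, the best known driver of lysosome formation, had 33.2, 31.6 and 31.6 CPM in high-load 1, 2 and 3, against 28.5, 24.1 and 25.4 CPM in controls 1, 2 and 3. Every high-load kidney stood above every control, with a log2 fold change of 0.31 (SE 0.093) and an adjusted p of 0.134 in edgeR's test. Tfe3, its X-linked relative, had 52.3, 43.9 and 44.3 CPM in high-load kidneys, against 43.4, 40.2 and 38.4 CPM in controls (log2 fold change 0.20, SE 0.10, edgeR adjusted p 0.260). These groups did not overlap either, but high-load 2 stood barely above control 1. Mitf, known for its role in melanocytes and osteoclasts, had 23.6, 24.8 and 27.7 CPM in high-load kidneys, against 23.8, 25.4 and 24.5 CPM in controls, and the groups overlapped. For all 3 factors the 95% interval of the fold change lay within 1.5-fold either way. These are transcript levels, and the factors are controlled mainly by phosphorylation and by entry into the nucleus, which counts do not show.

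The promoters of the members were searched, on both strands, for E-box letters of the kind this family binds. RefSeq windows on GRCm38.p6, from 250 bases before to 50 after a gene's start, were at hand for 36 of the 44 members. The letters CACGTG, which read the same on both strands, were in a window of 13 of these 36 members (36.1%), against 8.09% of 27025 genes with such windows and 11.2% of the 12069 of them that were tested. The longer TCACGTGA, which contains CACGTG, was in 7 members (19.4%), against 1.12% of all genes and 2.01% of those tested. The form TCACGTG was in 12 members (33.3%), against 4.29% of all genes and 6.62% of those tested. TCACGTGA with a further G before it and a C after it was in 0 of 36 members, against 0.37% of all genes and 0.713% of those tested. The letters TCATGTG, which do not contain CACGTG, were in 5 members (13.9%), against 4.31% of all genes and 2.85% of those tested. A match is a run of letters, not a bound site.

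Genes with higher levels occurred both among members with and among members without these letters. The median log2 fold change was 0.010 in members with CACGTG, and 3 of these 13 were higher at an unadjusted p under 0.05: Ctsd, Gla and Atp6v0e. In members without it the median was 0.13, and 9 of these 23 were higher. All 6 genes of the macrophage-rich list described below were among the 23, and so was Tfeb itself. The 250 bases before the start are shown for 5 genes that carry this contrast, with CACGTG in capitals. Ctsd and Gla hold the letters and were higher, Lamp1 and Mcoln1 hold them and were not, and Gpnmb had the largest fold change and holds none. The windows, on GRCm38.p6, are chr7:142387828-142388077 (minus strand) for Ctsd, chrX:134601006-134601255 (minus strand) for Gla, chr8:13158911-13159160 (plus strand) for Lamp1, chr8:3500269-3500518 (plus strand) for Mcoln1 and chr6:49036268-49036517 (plus strand) for Gpnmb.
Ctsd: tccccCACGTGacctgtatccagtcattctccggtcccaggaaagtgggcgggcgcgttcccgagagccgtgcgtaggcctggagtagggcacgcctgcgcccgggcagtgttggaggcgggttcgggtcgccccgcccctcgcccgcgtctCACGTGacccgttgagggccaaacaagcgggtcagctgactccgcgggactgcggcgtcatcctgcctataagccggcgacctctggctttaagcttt
Gla: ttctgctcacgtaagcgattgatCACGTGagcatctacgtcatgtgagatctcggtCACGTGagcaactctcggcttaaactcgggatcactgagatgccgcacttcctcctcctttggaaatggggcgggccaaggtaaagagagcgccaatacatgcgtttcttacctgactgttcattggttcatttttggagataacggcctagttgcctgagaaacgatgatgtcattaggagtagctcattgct
Lamp1: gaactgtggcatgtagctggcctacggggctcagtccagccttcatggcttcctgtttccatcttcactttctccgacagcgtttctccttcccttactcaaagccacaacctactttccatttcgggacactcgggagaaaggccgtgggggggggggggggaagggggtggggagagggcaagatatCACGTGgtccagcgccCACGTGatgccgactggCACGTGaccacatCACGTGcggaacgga
Mcoln1: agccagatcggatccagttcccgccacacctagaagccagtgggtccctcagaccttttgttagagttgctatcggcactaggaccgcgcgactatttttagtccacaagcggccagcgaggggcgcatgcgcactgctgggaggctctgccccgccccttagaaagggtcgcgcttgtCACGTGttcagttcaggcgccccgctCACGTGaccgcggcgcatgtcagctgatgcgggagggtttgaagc
Gpnmb: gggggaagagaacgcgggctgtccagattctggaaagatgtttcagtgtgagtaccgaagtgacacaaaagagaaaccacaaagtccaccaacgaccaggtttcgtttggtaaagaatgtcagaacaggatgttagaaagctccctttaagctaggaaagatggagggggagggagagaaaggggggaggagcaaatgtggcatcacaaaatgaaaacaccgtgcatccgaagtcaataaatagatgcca
In Lamp1, the letters occur 4 times, beginning 61, 45, 28 and 15 bases before the start, and in Ctsd they begin 245 and 98 bases before it.

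Among the membrane proteins of the lysosome was the member with the largest fold change. Gpnmb (chromosome 6, 49036546 to 49070929, mm10), a glycoprotein of macrophages and osteoclasts, had 67.25, 20.2 and 30.8 CPM in high-load 1, 2 and 3, against 6.43, 2.55 and 1.47 CPM in controls 1, 2 and 3. The lowest high-load kidney was above the highest control, and the gene's log2 fold change of 3.50 (SE 0.66, 95% interval of the fold 3.79 to 33.6) was above that of 99.8% of all genes tested. Its edgeR adjusted p was 0.0946. The value leaned on single libraries: the log2 fold change was 4.30 without control 1 and 2.87 without high-load 1. Per kilobase of exon, Gpnmb was the lowest of the 44 genes in controls, at 0.535 CPM per kilobase.

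None of the other 4 membrane proteins had an unadjusted p under 0.05. Lamp1, the most abundant of them and a main part of the protein coat inside the membrane, had 874, 1047 and 1061 CPM in high-load kidneys, against 1185, 1110 and 1168 CPM in controls. With TMM scaling, it was the single member with every high-load kidney below every control (log2 fold change -0.22, SE 0.16, edgeR adjusted p 0.424). Under scaling by library totals, the log2 fold change of Lamp1 was -0.10. Its X-linked partner Lamp2, which also serves chaperone-mediated autophagy, had 536, 777 and 760 CPM in high-load kidneys, against 775, 835 and 813 CPM in controls (log2 fold change -0.23, SE 0.18, edgeR adjusted p 0.476). In both genes high-load 1 was the lowest of the 6 kidneys, and in Lamp2 the second high-load kidney overlapped the controls. Mean levels of the tetraspanin Cd63 were 861 ± 102 CPM in high-load kidneys and 867 ± 20.5 CPM in controls (SD, n = 3 each). The calcium channel Mcoln1, which signals to TFEB through calcineurin, was at 72.15 ± 2.85 CPM in high-load kidneys and 71.8 ± 1.94 CPM in controls, with a 95% interval of the fold change from 0.889 to 1.14.

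The precursors that yield granulins and saposins differed from each other. Grn encodes progranulin, a secreted protein that lysosomes cut into granulins and that is rich in macrophages. It had 366, 282 and 329.5 CPM in high-load kidneys, against 215, 219 and 200.4 CPM in controls, a log2 fold change of 0.62 (SE 0.13, edgeR adjusted p 0.0981). All 3 high-load kidneys were above the controls, high-load 1 most. Psap, the precursor of the saposins that help hydrolases reach lipids and per kilobase the most abundant member in controls, had 2207, 1832 and 1718 CPM in high-load kidneys, against 1701, 1767 and 1803 CPM in controls (log2 fold change 0.13, SE 0.18, edgeR adjusted p 0.688). Its groups overlapped, with high-load 1 alone well above the rest.

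Cathepsins, the proteases of the lysosome, differed by gene. In this group of 10 genes, which also holds legumain, 4 were higher at an unadjusted p under 0.05. Cathepsin S, Ctss (chromosome 3, 95526786 to 95556403), a protease of antigen-presenting cells, had 264, 104 and 127 CPM in high-load kidneys, against 68.1, 56.5 and 59.9 CPM in controls. Its log2 fold change was 1.42 (SE 0.35, edgeR adjusted p 0.111), or 0.91 without high-load 1, which held the highest value by far. Ctsk (chromosome 3, 95499256 to 95509362), the collagen-cutting cathepsin of osteoclasts and fibroblasts, lies beside Ctss on the same strand. It had 25.3, 34.75 and 25.9 CPM in high-load kidneys, against 16.1, 10.1 and 14.8 CPM in controls (log2 fold change 1.07, SE 0.21, edgeR adjusted p 0.0946). Here high-load 2, not high-load 1, was highest, so the neighbours ranked the high-load kidneys differently. Summed levels of 5 fibroblast markers were 477, 644 and 401 CPM in high-load kidneys, against 348, 183 and 364 CPM in controls. Of the 5, Col1a1 and Col3a1 were higher at an unadjusted p under 0.05, the groups overlapped for Dcn, Lum and Pdgfra, and the log2 fold change of Pdgfra was -0.58. The part of these cells in the Ctsk value was not tested.

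Ctsc, which activates the serine proteases of immune cells, had 148, 86.3 and 130.2 CPM in high-load kidneys, against 60.1, 59.2 and 46.0 CPM in controls (log2 fold change 1.14, SE 0.22, edgeR adjusted p 0.0946). Ctsd, the main aspartic protease of lysosomes in all tissues, had 1991, 1079 and 1737 CPM in high-load kidneys, against 863, 757 and 745 CPM in controls. Its log2 fold change was 1.02 (SE 0.25, edgeR adjusted p 0.111), and its mean level per kilobase of exon was 682 CPM per kilobase in high-load kidneys and 335 CPM per kilobase in controls. In both Ctsc and Ctsd all 3 high-load kidneys were above the controls, with high-load 2 nearest to them. An exon of Ctsd overlaps one of Gm49369 on the same strand, so reads there could be of either gene.

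The other cathepsins did not share this pattern. Ctsz, a carboxypeptidase placed in the macrophage-rich list, had 161, 156 and 151 CPM in high-load kidneys, against 158, 162 and 167 CPM in controls, and the groups overlapped. The 95% interval of its fold change, 0.835 to 1.11, lay within 1.5-fold. Ctsh, an aminopeptidase, was at 218 ± 19.1 CPM in high-load kidneys and 269 ± 34.65 CPM in controls (log2 fold change -0.30, SE 0.14, edgeR adjusted p 0.231), and Ctsa, the protective protein of the sialidase complex, was at 330.4 ± 38.2 CPM in high-load kidneys and 348 ± 10.3 CPM in controls (SD, n = 3 each). Neither difference passed even an unadjusted p of 0.05.

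**Figure D2:**
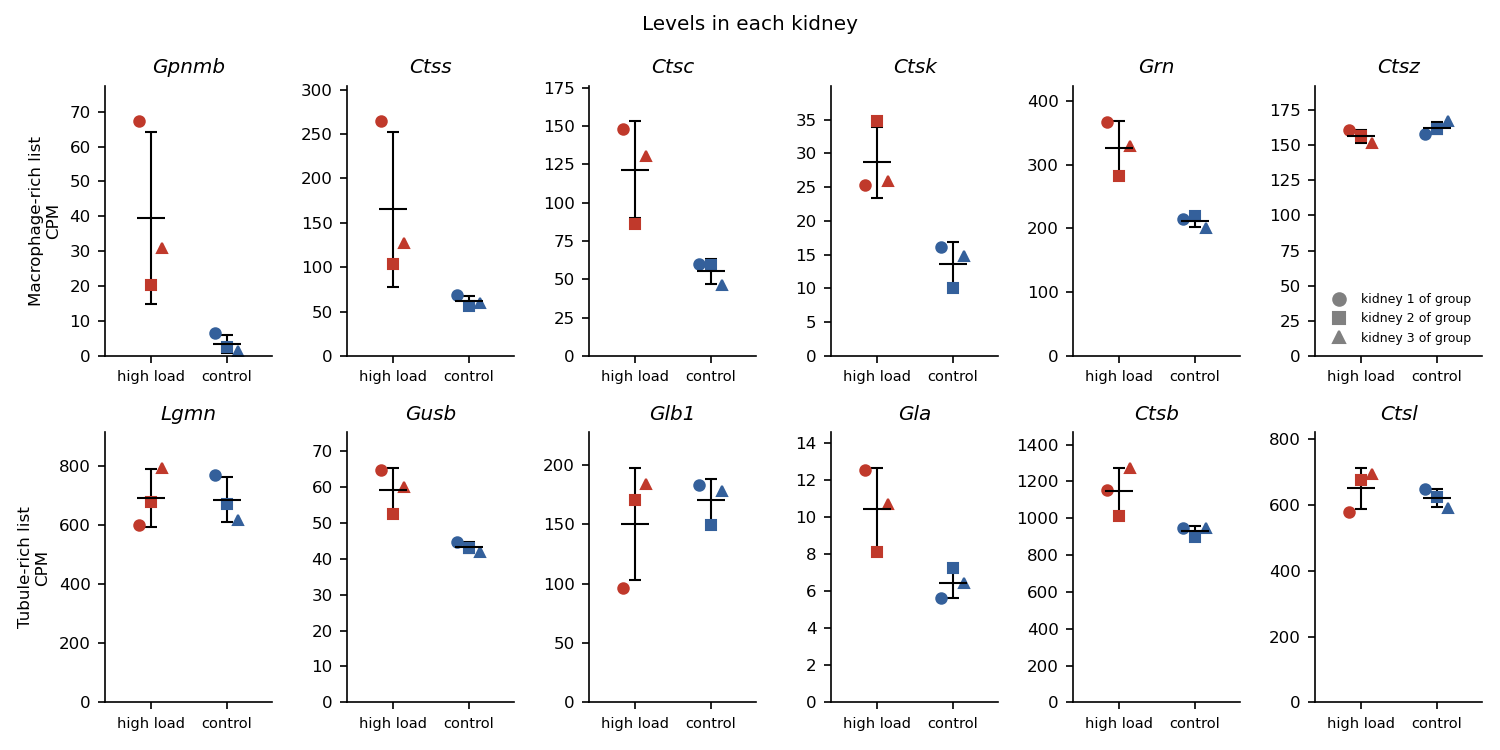
CPM of the 6 macrophage-rich (top) and 6 tubule-rich (bottom) genes in each kidney, high load left of control; the marker shape gives the number of the kidney within its group, and bars are mean ± SD (n = 3). In the top row 5 of 6 genes have all high-load kidneys above the controls and Ctsz does not; in the bottom row Gusb, Gla and Ctsb do.

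A pair of lists set macrophage-rich against tubule-rich members. Both were drawn from background knowledge but with earlier results of these data known, so they are described and not tested. The macrophage-rich list held Gpnmb, Grn, Ctsc, Ctsk, Ctss and Ctsz. Its median log2 fold change was 1.11, 5 of 6 genes were higher at an unadjusted p under 0.05, and the exception was Ctsz. Among the 5, Ctsk is described above as a cathepsin of osteoclasts and fibroblasts. Unlike the macrophage marker sum, Ctsk was highest in high-load 2. The list's summed level was 1032, 683 and 795 CPM in high-load 1, 2 and 3, against 523.5, 509 and 490 CPM in controls 1, 2 and 3. The ratio of the mean sums was 1.65, beside 1.94 for the macrophage markers. High-load 1 had the highest sum of both lists, while the order of high-load 2 and 3 differed between the sums. Of the marker sum, Cd74 alone made up 1073 CPM in high-load 2 and 777 CPM in high-load 3. As means of log2 levels, both lists were higher in high-load 3 than in high-load 2. These means were 0.868 and 0.637 for the markers, and 1.16 and 0.948 for the macrophage-rich list.

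The tubule-rich list held legumain, cathepsins B and L and the glycosidases Gusb, Glb1 and Gla. Of its 6 genes, 2 were higher at an unadjusted p under 0.05, Gusb and Gla, and 0 were lower. Its summed level was 2505, 2602 and 3015 CPM in high-load kidneys, against 2594, 2393 and 2380 CPM in controls, a ratio of mean sums of 1.10, beside 0.516 for the proximal tubule markers. Its median log2 fold change was 0.18. Legumain, Lgmn, an asparagine-specific protease with which the proximal tubule digests filtered protein, had 599, 678 and 793 CPM in high-load kidneys, against 768, 671 and 617 CPM in controls (log2 fold change 0.010, SE 0.17, 95% interval of the fold 0.762 to 1.33). Its groups overlapped. Ctsb had 1154, 1015 and 1271 CPM in high-load kidneys, against 945, 896 and 946 CPM in controls (log2 fold change 0.30, SE 0.16, edgeR adjusted p 0.2755), and the groups did not overlap. Ctsl, an endopeptidase, had 578.5, 678 and 696 CPM in high-load kidneys, against 648, 626 and 591 CPM in controls, with high-load 1 lowest and high-load 3 highest of all 6.

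**Figure D3:**
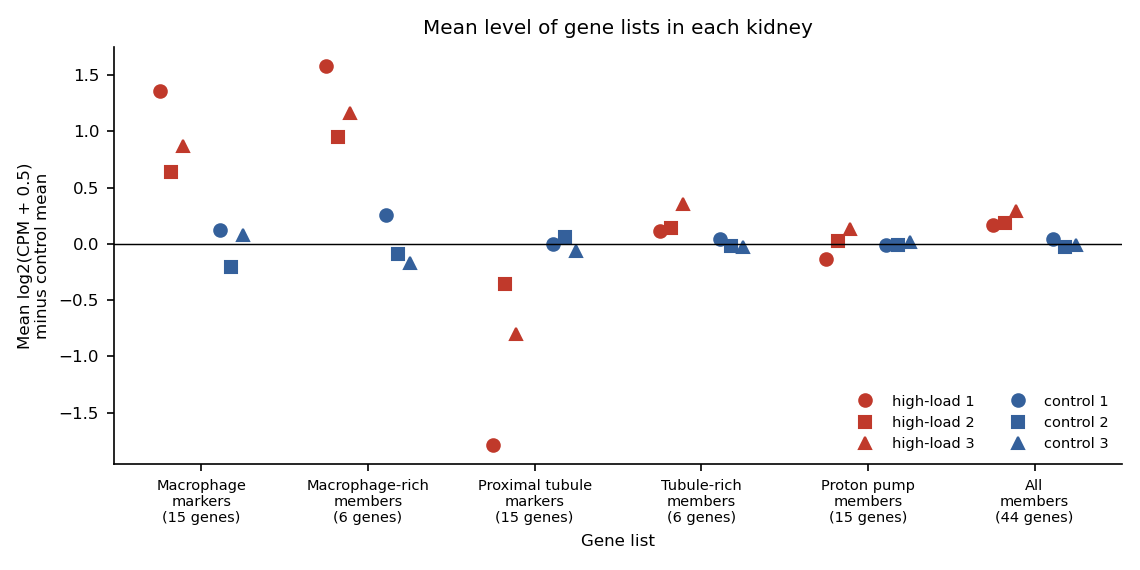
Mean over the genes of each list of log2(CPM + 0.5) minus the control mean, for each kidney; high-load kidneys are left of the controls, and marker shapes give the number of the kidney. High-load 1 is at 1.36 for macrophage markers, 1.58 for macrophage-rich members, -1.79 for proximal tubule markers and 0.118 for tubule-rich members.

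Of the 9 glycosidases and lipid hydrolases, 4 were higher at an unadjusted p under 0.05 and 5 had fold changes below 1. Hexa, the alpha subunit of hexosaminidase A, which degrades gangliosides, had 127, 112 and 142 CPM in high-load kidneys, against 93.4, 74.1 and 82.6 CPM in controls (log2 fold change 0.61, SE 0.13, edgeR adjusted p 0.0981). Asah1, acid ceramidase, had 169, 146 and 164 CPM in high-load kidneys, against 118, 103 and 119 CPM in controls (log2 fold change 0.50, SE 0.11, edgeR adjusted p 0.0981). Both had all high-load kidneys above all controls, with small spreads. Beta-glucuronidase, Gusb, had 64.8, 52.3 and 59.95 CPM in high-load kidneys, against 44.8, 43.0 and 41.8 CPM in controls (log2 fold change 0.45, SE 0.099, edgeR adjusted p 0.0983). Gla, the alpha-galactosidase that is deficient in Fabry disease, had 12.5, 8.09 and 10.7 CPM in high-load kidneys, against 5.66, 7.23 and 6.43 CPM in controls (log2 fold change 0.70, SE 0.21, edgeR adjusted p 0.131). Gla was one of the scarcest members, and its high-load 2 was only just above control 2.

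None of the 5 with fold changes below 1 had an unadjusted p under 0.05. Beta-galactosidase, Glb1, had 96.4, 171 and 184.5 CPM in high-load kidneys, against 183, 149 and 178 CPM in controls, so that high-load 1 alone stood apart (log2 fold change -0.18, SE 0.245, or 0.063 without high-load 1). An exon of Glb1 overlaps one of Tmppe on the same strand. Lipa, the lysosomal acid lipase, was at 180 ± 55.8 CPM in high-load kidneys and 242 ± 34.5 CPM in controls, and the sialidase Neu1 was at 279 ± 59.3 CPM in high-load kidneys and 366 ± 57.1 CPM in controls (SD, n = 3 each; edgeR adjusted p 0.321 for Lipa and 0.280 for Neu1). Their levels were lowest in high-load 1, at 120 CPM for Lipa and 214 CPM for Neu1. Gaa, the alpha-glucosidase that degrades glycogen, and the mannosidase Man2b1 had log2 fold changes of -0.11 and -0.091. For both the 95% interval of the fold change lay within 1.5-fold.

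**Figure D4:**
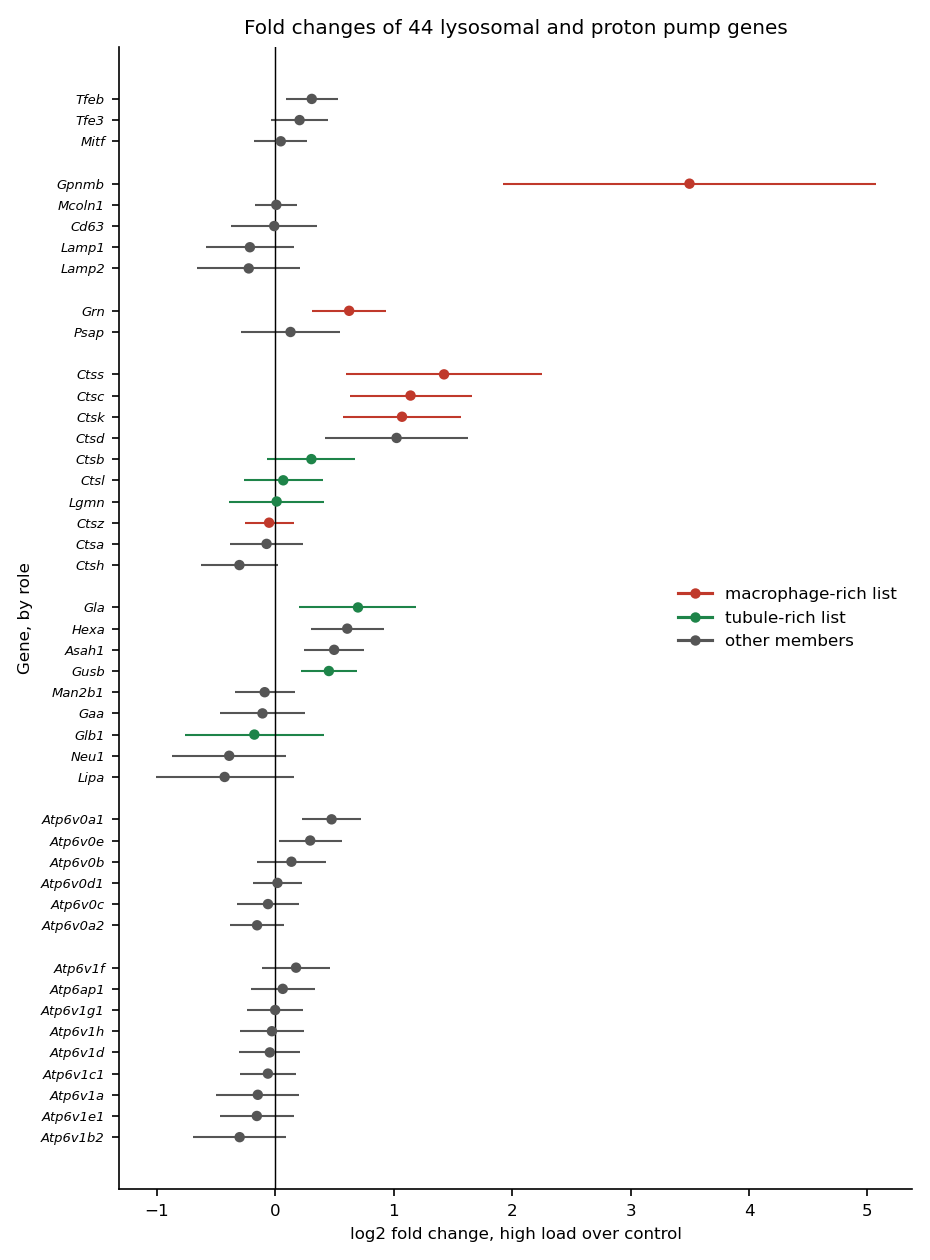
Log2 fold change, high load over control, of the 44 genes by role, with its unadjusted 95% interval from edgeR's quasi-likelihood fit; colours mark the macrophage-rich and tubule-rich lists. Gpnmb stands at 3.50, Ctss, Ctsc, Ctsk and Ctsd lie between 1.02 and 1.42, and the proton pump lies between -0.30 and 0.47.

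Most widely expressed genes of the proton pump had fold changes near 1, and Atp6v0a1 had the highest. Over 15 genes the median log2 fold change was -0.030, and for 13 of 15 the 95% interval of the fold change lay within 1.5-fold either way. At an unadjusted p under 0.05, 2 of the 15 were higher, a share near the 14.0% of all genes. The summed level of the 15 was 2309, 2658 and 2825 CPM in high-load 1, 2 and 3, against 2601, 2645 and 2714 CPM in controls 1, 2 and 3. In 13 of the 15, high-load 1 was the lowest of the 3 high-load kidneys, and the median was 0.065 without it. The share of all genes with high-load 1 lowest was not counted. The TMM factor of high-load 1, at 1.14 the largest of any kidney, lowers all of its levels beside those of the others.

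In the V0 sector, Atp6v0a1 encodes a form of the large subunit a that helps carry protons and directs the pump to its membrane. It had 122, 97.4 and 117 CPM in high-load kidneys, against 79.6, 80.2 and 82.7 CPM in controls (log2 fold change 0.47, SE 0.11, edgeR adjusted p 0.0998). The controls were within a narrow band and every high-load kidney lay above it. Its sister form Atp6v0a2, known from the Golgi, had 59.7, 69.5 and 67.25 CPM in high-load kidneys, against 78.5, 67.9 and 72.35 CPM in controls, and its groups overlapped (log2 fold change -0.16, SE 0.096, edgeR adjusted p 0.356). The small subunit gene Atp6v0e had 111, 115 and 140.1 CPM in high-load kidneys, against 99.6, 96.4 and 102 CPM in controls (log2 fold change 0.29, SE 0.11, edgeR adjusted p 0.179). Those groups did not overlap. The ring subunits Atp6v0b and Atp6v0c, which carry the protons, and Atp6v0d1, which joins the ring to the stalk, had log2 fold changes of 0.14, -0.063 and 0.017.

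The V1 sector and its accessory protein held 0 of 9 genes with an unadjusted p under 0.05. Atp6v1b2, which forms the ATP-splitting head together with Atp6v1a, had 203, 291 and 272 CPM in high-load kidneys, against 289, 314.5 and 342 CPM in controls (log2 fold change -0.30, SE 0.165, edgeR adjusted p 0.301), the lowest log2 fold change of any pump member. Atp6v1f, a rotor subunit, had 140.1, 163 and 178 CPM in high-load kidneys, against 139, 134 and 154 CPM in controls (log2 fold change 0.17, SE 0.12, edgeR adjusted p 0.408). The stalk subunit Atp6v1e1 had 190.2, 220.1 and 251 CPM in high-load kidneys, against 236.5, 245.0 and 256 CPM in controls (log2 fold change -0.16, SE 0.13, edgeR adjusted p 0.486). In all 3 genes the groups overlapped and high-load 1 was the lowest high-load kidney. The catalytic Atp6v1a, the subunits Atp6v1c1, Atp6v1d, Atp6v1g1 and Atp6v1h and the accessory protein Atp6ap1 had log2 fold changes from -0.15 for Atp6v1a to 0.062 for Atp6ap1. Under scaling by library totals, which moves the median of all genes to 0.13, the signs of Atp6v1c1, Atp6v1d, Atp6v1g1, Atp6v1h and Atp6v0c turn.

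**Figure D5:**
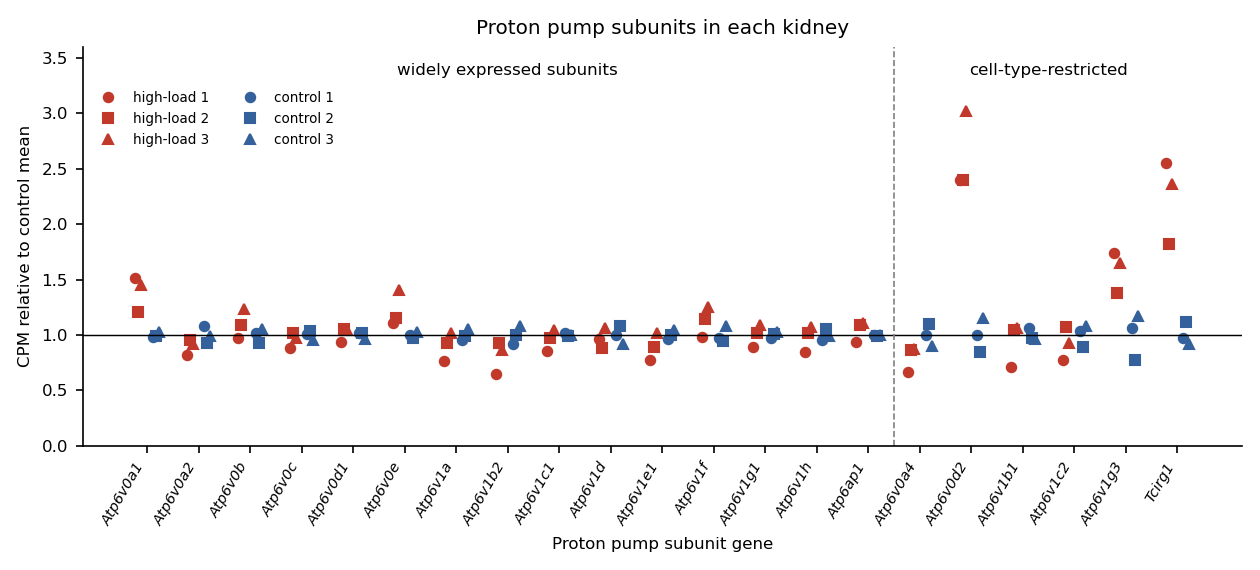
CPM of each proton pump gene in each kidney divided by the control mean of the gene, high load left of control, with 15 widely expressed subunits left of the dashed line and 6 cell-type-restricted subunits right of it. Atp6v0d2 and Tcirg1 lie far above 1 in all high-load kidneys, and most widely expressed subunits lie near 1.

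Pump subunits that are limited to certain cells included 3 of 6 that were higher at an unadjusted p under 0.05, against 14.0% of all genes. Atp6v0d2, a V0 subunit of osteoclasts, macrophages and acid-secreting cells, had 77.2, 77.1 and 97.0 CPM in high-load kidneys, against 32.0, 27.3 and 37.1 CPM in controls (log2 fold change 1.38, SE 0.15, edgeR adjusted p 0.0696). Tcirg1, the large subunit a of osteoclasts and immune cells, had 127.5, 91.1 and 118 CPM in high-load kidneys, against 48.5, 55.5 and 45.8 CPM in controls (log2 fold change 1.17, SE 0.15, edgeR adjusted p 0.0772). Neither group pair overlapped. Atp6v1g3, also higher at that threshold, had 33.9, 26.8 and 32.1 CPM in high-load kidneys, against 20.6, 15.0 and 22.8 CPM in controls. Its log2 fold change was 0.67 (SE 0.17, edgeR adjusted p 0.117), and its groups did not overlap. Log2 fold changes of the rest were -0.090 for Atp6v1b1, the V1 subunit of intercalated cells, -0.12 for Atp6v1c2 and -0.32 for Atp6v0a4. Among the widely expressed pump genes outside the 44, Atp6v0e2 was at 39.75 ± 11.9 CPM in high-load kidneys and 64.1 ± 4.88 CPM in controls (SD, n = 3 each; log2 fold change -0.69, edgeR adjusted p 0.147). The next smallest p there was that of Atp6v1g2, with 8.93, 10.9 and 9.575 CPM in high-load kidneys, against 8.99, 6.62 and 8.72 CPM in controls (log2 fold change 0.27, SE 0.18, edgeR adjusted p 0.378), and its groups overlapped.

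Other genes of the lysosome, from lists written down alongside the members, were compared in the same way. At an unadjusted p under 0.05, 14.0% of all genes were higher and 10.2% lower. Of 29 further hydrolases and cofactors, 2 were higher and 3 lower at this threshold, with a median log2 fold change of -0.066. The smallest p belonged to Pla2g15, a lysosomal phospholipase of macrophages (26.1 ± 4.80 CPM in high-load kidneys and 16.75 ± 1.92 CPM in controls), and to Ids, iduronate sulfatase (75.7 ± 11.1 CPM in high-load kidneys and 100.8 ± 5.59 CPM in controls; SD, n = 3 each). Of 19 tested membrane and export proteins, 5 were higher and 1 lower, led by the cholesterol carrier Npc2 (log2 fold change 0.34, SE 0.11) and the calcium channel Tpcn2 (0.56, SE 0.18). Lamp3, with 20 counts in all, was too scarce to test. Of 9 genes that sort hydrolases by mannose 6-phosphate, 3 were higher and 0 lower, with Gnptab and Nagpa, which build the tag, at log2 fold changes of 0.29 and 0.25. No gene of these lists passed the edgeR adjusted threshold of 0.05.

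Genes that control TFEB and genes of autophagy were counted in the same way. Of 17 genes around mTORC1, the Rag GTPases and calcineurin, 1 was higher and 2 lower at an unadjusted p under 0.05, with a median log2 fold change of -0.050, and these shares are near or below the 14.0% higher and 10.2% lower of all genes. Mtor, the kinase of mTORC1, had 90.7, 148 and 119 CPM in high-load kidneys, against 192, 185 and 207 CPM in controls (log2 fold change -0.71, SE 0.18, edgeR adjusted p 0.114). Every high-load kidney was below every control, and high-load 1 was lowest. Rragd, a Rag GTPase and a known target of TFEB, had 103.5, 95.2 and 144 CPM in high-load kidneys, against 66.3, 81.3 and 68.9 CPM in controls (log2 fold change 0.66, SE 0.18, edgeR adjusted p 0.118). Of 16 autophagy genes 1 was higher and 4 were lower, with a median log2 fold change of -0.077. Gabarapl2, a protein of the autophagosome membrane, and Ulk1, the kinase that starts autophagy, had log2 fold changes of -0.25 (SE 0.086) and -0.32 (SE 0.11), with edgeR adjusted p of 0.154 and 0.159.

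The summed level of the 44 genes was 13790, 13500 and 14687 CPM in high-load 1, 2 and 3, against 13035, 12737 and 12962 CPM in controls 1, 2 and 3, a ratio of means of 1.08. Ctsd carried most of that difference: without it the sums were 11799, 12421 and 12950 CPM in high-load kidneys, against 12172, 11980 and 12217 CPM in controls, a ratio of means of 1.02. High-load 1 was then below every control, and the groups overlapped. This order holds for TMM-scaled levels, with a factor of 1.14 in high-load 1. As shares of unscaled counts, all 44 genes made up 1.57%, 1.34% and 1.46% in high-load 1, 2 and 3. In controls 1, 2 and 3 the shares were 1.25%, 1.2% and 1.26%, so the shares of the groups did not overlap. The 13 members at an unadjusted p under 0.05 were highest in high-load 1 among the 3 high-load kidneys in 10 cases, and the other 31 were lowest there in 25. The 13 were picked by the same values, and how often high-load 1 was highest or lowest over all genes was not counted. High-load 1 and high-load 2 have the same load, 75%, and still differed by a factor of more than 3 in Gpnmb and more than 2 in Ctss. For 13 of the 44 genes an exon overlaps that of another gene, and the labels do not say whether strand was used in counting.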

How the data were processed

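Whole-kidney RNA of 6 female mice was sequenced. The deposited values are read counts per gene, not normalized. Per the submitters' processing notes, the authors used fastp 0.23.2, HISAT2 2.2.1, SAMtools 1.11, featureCounts 2.0.1 and edgeR on mm10, in an order the notes do not give. Every count column matched a sample title, and 0 columns were left over. Genes were filtered with filterByExpr in edgeR 4.0.16 (R 4.3.3; minimum count 10), scaled by TMM and tested with the quasi-likelihood F test, 3 high-load against 3 control kidneys, with Benjamini-Hochberg adjustment over 15955 genes. DESeq2 1.42.0, limma-voom (limma 3.58.1), other scalings and filters, and each library left out were alternatives. The pipeline was tested on simulated counts. Coordinates and exon lengths come from GENCODE M21 on the same build, and promoters from RefSeq. No batch is labelled. The members, gene lists and tests were chosen with earlier results of these data known. Genes of the TFEB family, both cell-bias lists and up to 3 of smallest p per role are named with every value, and the 2 of smallest p in each further list; other genes with values, Ctsd among them, were chosen after their values were seen. Counting error was not separated from the spread between kidneys. At 17449270 to 18865997 counts per library, the lowest count of any member in a library was 27, for Gpnmb.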

Additional observations from a re-analysis of the deposited data

How the results depend on the processing

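At an adjusted p under 0.05, edgeR called 3 of all genes, against 50 with no filter on low counts, 1698 with DESeq2 (1074 higher and 624 lower), 0 with limma-voom, 1 with the replicate block, 10 with the load as a number, and 0 to 807 when 1 library was left out (807 without high-load 2, 3 without high-load 3, 0 without high-load 1 or any control). Members called numbered 0, against 11 with DESeq2 and 0 to 9 with 1 library left out (9 without high-load 2). Members higher at an adjusted p under 0.1 numbered 8, against 3 with DESeq2 size factors, 0 with limma-voom, 5 with the replicate block and 0 to 11 with 1 library left out (11 without high-load 2, 0 without any other). Members lower at an unadjusted p under 0.05 numbered 0, against 1 with DESeq2, 1 with the replicate block and 0 to 3 with 1 library left out, while those higher stayed between 12 and 15 in every alternative run. There was no sign that the replicate numbers pair the kidneys. Same-numbered kidneys had correlations of 0.124, -0.189 and 0.0523 of their deviations from the group means. Kidneys of unlike number had correlations from -0.282 to 0.316. With 3 kidneys per group, these values cannot exclude a pairing.

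Scaling by library totals moved the median log2 fold change of all genes to 0.13, of the members to 0.13, of the tubule-rich list to 0.30 and of the proton pump to 0.082. The pump's median was -0.076 to 0.065 with 1 library left out. Under library totals the log2 fold changes of Cd63 (0.10), Ctsa (0.036), Ctsz (0.068), Man2b1 (0.031), Atp6v0c (0.052), Atp6v1c1 (0.048), Atp6v1d (0.073), Atp6v1g1 (0.11) and Atp6v1h (0.082) turned sign. Mcoln1 turned to -0.0012 with DESeq2 size factors and -0.0034 with DESeq2, and Atp6v1g1 to 0.00070 with a filter of 1 CPM and 0.0051 with the load as a number. With 1 library left out, sign also turned within -0.024 to 0.097 for Mitf, -0.069 to 0.088 for Cd63, -0.15 to 0.016 for Ctsa, -0.10 to 0.11 for Lgmn, -0.35 to 0.063 for Glb1, -0.20 to 0.034 for Gaa, -0.012 to 0.043 for Mcoln1, -0.015 to 0.072 for Atp6v0d1, -0.13 to 0.015 for Atp6v1c1, -0.12 to 0.017 for Atp6v1d, -0.071 to 0.077 for Atp6v1g1 and -0.10 to 0.065 for Atp6v1h. The cause of these shifts was not tested.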
